A study of Mus musculus with 7 samples.

Results

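miR-144, miR-451a and miR-486 are miRNAs known for their high level in red blood cells, and they were followed here in mouse hepatocyte libraries, where blood is one possible source of them. The deposited tables hold 7 names for them among 1966 mature miRNA names, and all 7 were taken by name: mmu-miR-144-3p, mmu-miR-144-5p, mmu-miR-451a, mmu-miR-486a-5p, mmu-miR-486a-3p, mmu-miR-486b-5p and mmu-miR-486b-3p (written without mmu, for mouse, from here on). The libraries are 4 of the genotype ALAS12-KO and 3 of WT, all from liver hepatocytes and all carrying the treatment label TMX, an abbreviation that is not explained. No allele, driver of deletion, age or number of animals is given, nor whether each replicate is its own animal. The p-values below therefore reflect the variation between libraries and may hold technical variation alone. Hepatocytes were obtained by perfusing the liver with collagenase through the portal vein with the vena cava opened, and were then pelleted at low speed and washed. The study asked how ALAS, 5-aminolevulinate synthase, which starts heme synthesis, affects small RNAs. ALAS1 is the form of most tissues and ALAS2 that of developing red cells.

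miR-144 and miR-451a are processed from 1 primary transcript that the red-cell factor GATA1 switches on, and both build up as red cells mature. miR-144 follows the usual route, in which Drosha frees a hairpin and Dicer cuts off its loop. The miR-451a hairpin is too short for Dicer: it is loaded whole into Argonaute 2, which slices its 3′ strand, and the remainder is trimmed to the mature miRNA. miR-486, from an intron of the erythrocyte membrane gene Ank1, is found in red cells and in muscle, and removal of its passenger strand in red cells also draws on slicing by Argonaute 2.

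The sequences below show the difference in processing that sets miR-451a apart from its neighbour, with mature miRNAs in capitals within each hairpin (RefSeq, GRCm38.p6, 5′ to 3′). Mir144 lies on the plus strand at chr11:78073005-78073070 and Mir451a on the same strand at chr11:78073170-78073241, with 99 bases between them and no host gene in the annotation.
miR-144 hairpin: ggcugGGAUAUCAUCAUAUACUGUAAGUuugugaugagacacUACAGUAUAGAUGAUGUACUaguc
miR-451a hairpin: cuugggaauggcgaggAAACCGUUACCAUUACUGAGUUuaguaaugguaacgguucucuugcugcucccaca
In the lowest-energy fold computed with ViennaRNA, the miR-144 hairpin had 27 base pairs around a terminal loop of 6 bases, and 0 bases of either mature arm lay in that loop. The miR-451a hairpin had 30 base pairs around a loop of 4 bases. Mature miR-451a covered bases 17 to 38 of it, with 17 bases paired on the 5′ strand and the last 4 filling the whole loop.

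The mature sequences are shown next with the seed, bases 2 to 8 from the 5′ end, in capitals, since the seed sets which transcripts a miRNA pairs with. miR-101a-3p is added because it is the 1 other miRNA, of 1675 table names with a reference sequence, that shares bases 2 to 7 with a member.
miR-144-3p: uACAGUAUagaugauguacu
miR-101a-3p: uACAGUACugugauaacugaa
miR-144-5p: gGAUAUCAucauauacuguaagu
miR-451a: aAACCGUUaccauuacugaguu
Sequences were matched for 3 of the 7 members. The seeds of miR-144-3p, miR-144-5p and miR-451a differ from each other, and 0 of the other names share all of bases 2 to 8 with any of them. miR-101a-3p, an abundant liver miRNA, averaged 9414 ± 431 CPM (reads per 1000000 miRNA reads; SD, n = 4) in ALAS12-KO and 8248 ± 485.8 CPM (SD, n = 3) in WT. Its mean over all libraries was 1678 times that of miR-144-3p, on read counts that are not corrected for ligation bias. The gene of miR-486a, Mir486, lies on the plus strand at chr8:23142555-23142682, inside Ank1 and outside its exons. That of miR-486b, Mir3107, lies within it on the minus strand, at chr8:23142573-23142662.

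The libraries held 10093244 to 17091539 miRNA reads in ALAS12-KO and 7719180 to 21962191 in WT. miR-122-5p, the leading hepatocyte miRNA, took 53.5% to 61.5% of them in ALAS12-KO and 57.1% to 59.4% in WT. ALAS12-KO replicate 1 had the lowest sums of several lists of markers of other cell types. Leukocyte markers summed to 3002 CPM in it, against 6538 to 9977 CPM in the other ALAS12-KO libraries and 8178 to 10988 CPM in WT. Endothelial markers summed to 10959 CPM in it, against 25490 to 36485 and 35562 to 52472 CPM. Its gap to the next ALAS12-KO library was 0.507 of the group's range for leukocyte and 0.569 for endothelial markers, below Dixon's critical ratio for 4 libraries. The members' fold changes, the ratio differences and the list medians are also given without it.

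All 7 members together were rare. They had 121, 139, 264 and 340 reads in ALAS12-KO replicates 1 to 4, against 335, 606 and 189 reads in WT replicates 1 to 3. As shares of miRNA reads these were 9.19, 13.8, 15.4 and 20.8 CPM in ALAS12-KO, against 20.9, 27.6 and 24.5 CPM in WT. Every ALAS12-KO library lay below every WT library, but ALAS12-KO replicate 4 and WT replicate 1 were nearly level, and their 95% Wilson intervals, 18.7 to 23.1 CPM and 18.8 to 23.3 CPM, overlapped widely. Such intervals cover counting error only, since the reads carry no molecular identifiers. The mean was 14.8 ± 4.78 CPM (SD, n = 4) in ALAS12-KO and 24.3 ± 3.35 CPM (SD, n = 3) in WT, a log2 ratio of means of −0.72, or −0.55 without ALAS12-KO replicate 1. For each member read there were 27040 to 66961 reads of miR-122-5p in ALAS12-KO libraries and 21520 to 27335 in WT libraries. In bulk RNA, fewer red cells and less miRNA per red cell cannot be told apart. miR-451a made up 52.2% of all 1994 member reads, miR-144-3p 26.7%, miR-144-5p 15.5% and miR-486a-5p 4.26%. By mean CPM, miR-451a ranked 225 among the 1966 names, and miR-486a-5p ranked 412.

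miR-144-3p, the more abundant arm of the miR-144 hairpin, had the largest fold change of the 4 members tested, though it did not pass the edgeR test. It had 36, 44, 43 and 70 reads in ALAS12-KO replicates 1 to 4, or 2.73, 4.36, 2.52 and 4.27 CPM, against 108, 159 and 72 reads in WT replicates 1 to 3, or 6.74, 7.24 and 9.33 CPM. All 4 ALAS12-KO libraries were below all 3 WT libraries, and the highest of them, replicate 2, had a Wilson interval of 3.25 to 5.85 CPM against 5.58 to 8.14 CPM for the lowest WT library, so these intervals overlapped slightly. The means were 3.47 ± 0.981 CPM (SD, n = 4) in ALAS12-KO and 7.77 ± 1.37 CPM (SD, n = 3) in WT. The edgeR log2 fold change, which uses TMM factors in place of plain totals, was −0.97 ± 0.29 (SE; edgeR adjusted p = 0.195). By unadjusted p it ranked 19 among the 450 miRNAs tested. DESeq2 called it, with a log2 fold change of −1.0 ± 0.30 and a DESeq2 adjusted p of 0.0417. Over all 15 alternatives the adjusted p ran from 0.0417 to 0.461. Without ALAS12-KO replicate 1 the edgeR log2 fold change was −0.97 as well (edgeR adjusted p = 0.128).

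miR-144-5p, the other arm, showed the same direction at a lower level. Its reads were 25, 21, 40 and 42 in ALAS12-KO, or 1.90, 2.08, 2.34 and 2.56 CPM, and 55, 97 and 29 in WT, or 3.43, 4.42 and 3.76 CPM. The groups did not overlap, with means of 2.22 ± 0.292 CPM (SD, n = 4) in ALAS12-KO and 3.87 ± 0.502 CPM (SD, n = 3) in WT. The highest ALAS12-KO library, replicate 4, had a Wilson interval of 1.90 to 3.46 CPM. That of the lowest WT library, replicate 1, was 2.64 to 4.47 CPM, so these intervals overlapped. Its log2 fold change of −0.64 ± 0.24 did not pass (edgeR adjusted p = 0.221), nor did it under DESeq2 (adjusted p = 0.173). The log2 fold change was −0.66 without ALAS12-KO replicate 1. Both arms come from 1 hairpin, so they are not independent of each other.

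miR-451a, which in red cells represses Ywhaz among other targets, overlapped between the genotypes. It had 54, 67, 175 and 198 reads in ALAS12-KO, or 4.10, 6.64, 10.2 and 12.1 CPM, against 151, 315 and 80 reads in WT, or 9.42, 14.3 and 10.4 CPM. ALAS12-KO replicates 1 and 2 were below all WT libraries, while replicates 3 and 4 lay within the WT range. The means were 8.27 ± 3.58 CPM (SD, n = 4) in ALAS12-KO and 11.4 ± 2.61 CPM (SD, n = 3) in WT, with a log2 fold change of −0.34 ± 0.31 (edgeR adjusted p = 0.559). Without ALAS12-KO replicate 1 the log2 fold change was −0.18, and without WT replicate 2 it was −0.077.

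miR-486 was close to the limit of detection. The 4 names together had 6, 7, 6 and 30 reads in ALAS12-KO, or 0.455, 0.694, 0.351 and 1.83 CPM, against 21, 35 and 8 reads in WT, or 1.31, 1.59 and 1.04 CPM. ALAS12-KO replicate 4 was the highest of all 7 libraries and the other ALAS12-KO libraries were the lowest. Nearly all reads were 5p: both 5p names together had 48 reads in ALAS12-KO and 63 in WT, and both 3p names, the passenger strand, 1 read in ALAS12-KO and 1 in WT. miR-486b-3p had 0 reads in every library, which allows up to 0.176 to 0.297 CPM in ALAS12-KO libraries and up to 0.137 to 0.389 CPM in WT libraries. The miR-486a and miR-486b genes overlap on opposite strands and their mature forms are nearly alike, so the split of 85 reads to miR-486a-5p and 26 to miR-486b-5p is uncertain. Only miR-486a-5p passed the filter on low counts. It had a log2 fold change of −0.38 ± 0.49 (edgeR adjusted p = 0.691), and it was −0.27 without ALAS12-KO replicate 1 and −1.0 without replicate 4.

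**Figure D1:**
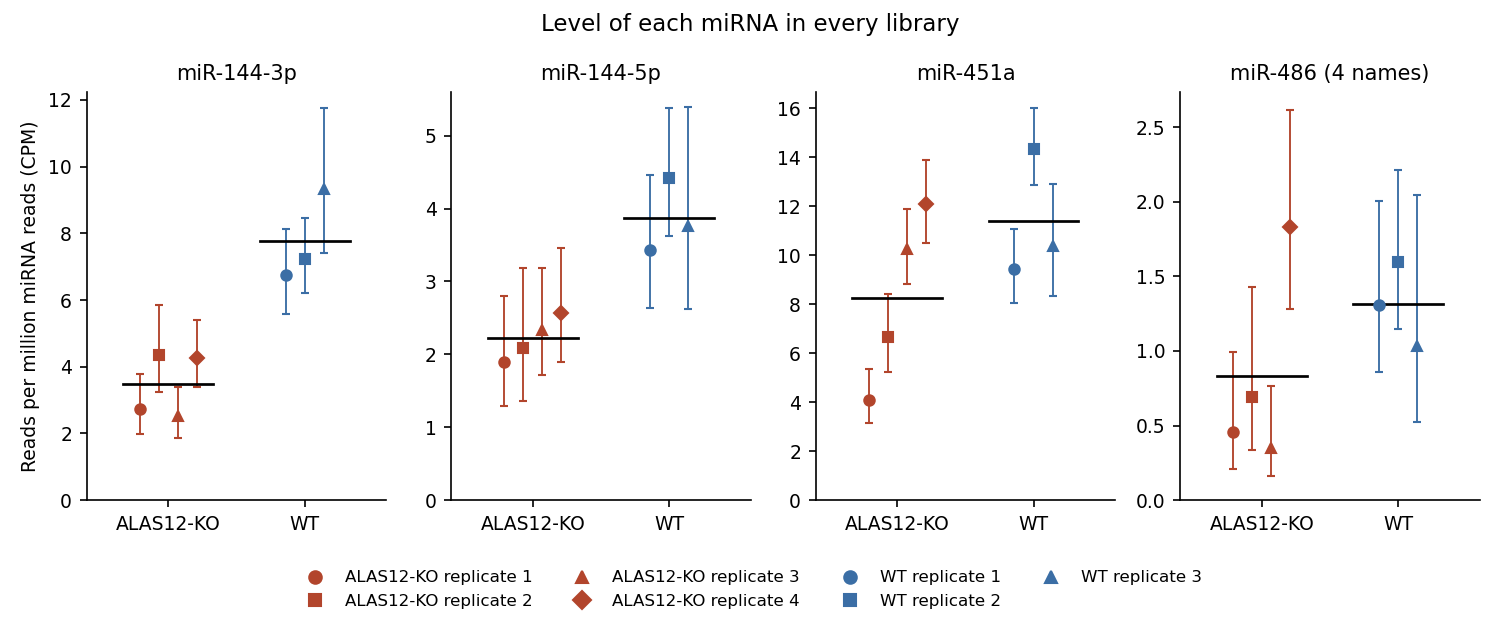
Level of each miRNA in CPM (vertical axes, linear from 0) in every ALAS12-KO library (red) and WT library (blue). Points are libraries with 95% Wilson intervals for counting error, and black lines are group means. The points of both miR-144 arms separated the groups, though some of their intervals overlapped, while the points of miR-451a and miR-486 overlapped.

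Of the 7 members, 4 passed the filter on low counts, and edgeR called 0 of them, beside 0% of all 450 miRNAs tested. At an unadjusted p under 0.05 there were 2 of 4, the miR-144 arms, both lower in ALAS12-KO, where 8.44% of all tested miRNAs were lower at that level and 18.7% stood at it in either direction. limma-voom called 0 and DESeq2 called 1, miR-144-3p, beside 0.905% of the 442 miRNAs to which it gave an adjusted p that were called lower. The groups did not overlap for 2 of the 4, both lower in ALAS12-KO. Of all tested miRNAs, 9.33% did not overlap in this direction in TMM-scaled CPM and 15.3% in CPM of summed miRNA reads. All 4 log2 fold changes were negative, with a median of −0.51, beside a median of 0.06 over all 450, of which 44% were negative. Scaling by library totals moved the median of all tested miRNAs by −0.18. Relative to totals the log2 fold changes were −1.16 for miR-144-3p, −0.80 for miR-144-5p, −0.46 for miR-451a and −0.51 for miR-486a-5p. The 4 are not independent, since 3 of them come from 1 transcript.

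**Figure D2:**
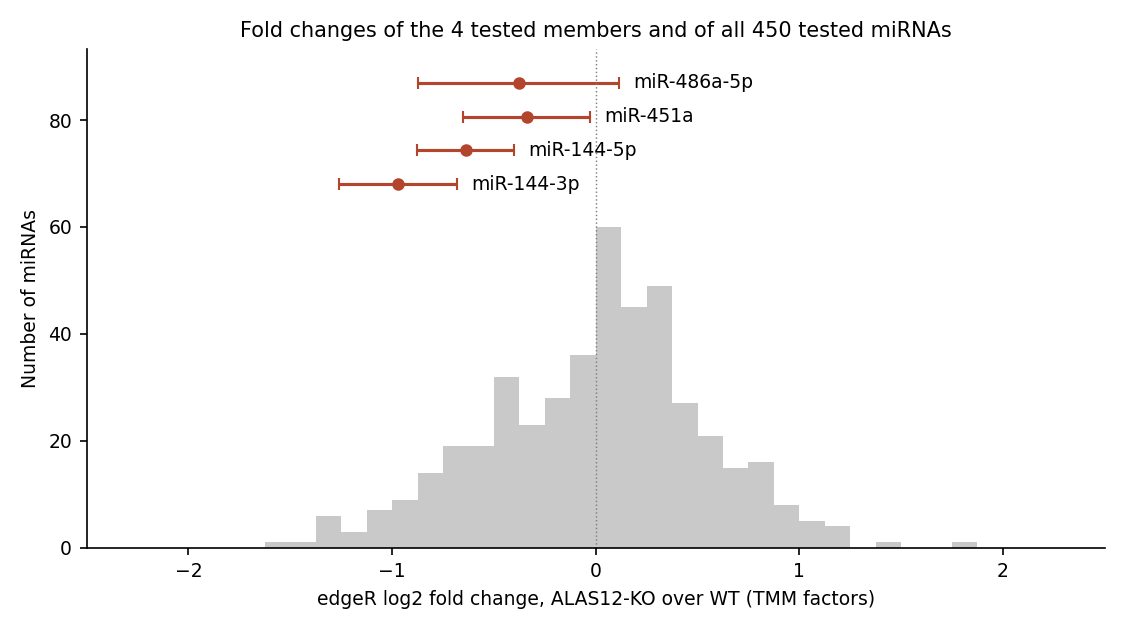
edgeR log2 fold change of ALAS12-KO over WT (horizontal axis) for all 450 tested miRNAs as a histogram (vertical axis, number of miRNAs), with the 4 tested members above it as points with SE. miR-144-3p at −0.97 lies furthest left of the 4, and miR-451a at −0.34 and miR-486a-5p at −0.38 lie nearer 0.

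Dicer-independent miR-451a was set against Dicer-dependent miR-144-3p of the same transcript, a ratio that library scaling does not touch. miR-451a reads per miR-144-3p read were 1.5, 1.52, 4.07 and 2.83 in ALAS12-KO replicates 1 to 4, against 1.40, 1.98 and 1.11 in WT replicates 1 to 3. ALAS12-KO replicates 3 and 4 were above every WT library, and replicates 1 and 2 lay within the WT range. The log2 ratio was 1.17 ± 0.70 (SD, n = 4) in ALAS12-KO and 0.54 ± 0.42 (SD, n = 3) in WT. The difference of 0.63 was smaller than the spread among ALAS12-KO libraries, and the two-sided exact permutation p was 0.229 (0.386 when adjusted over the 3 ratios by Benjamini-Hochberg). The smallest p that the 35 splits allow is 0.0286. Against miR-144-5p the difference was 0.24. The difference to miR-144-3p was 0.83 without ALAS12-KO replicate 1.

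The balance of the miR-144 arms varied too. miR-144-5p reads per miR-144-3p read were 0.694, 0.477, 0.930 and 0.600 in ALAS12-KO, against 0.509, 0.610 and 0.403 in WT. The groups overlapped, with log2 ratios of −0.60 ± 0.40 (SD, n = 4) in ALAS12-KO and −0.99 ± 0.29 (SD, n = 3) in WT, and a two-sided exact permutation p of 0.257 (0.386 adjusted). The difference was 0.39, or 0.36 without ALAS12-KO replicate 1. ALAS12-KO replicate 3 had the highest value of both ratios, and its miR-144-3p was the lowest of all 7 libraries.

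miR-451a was also set against miR-486, which comes from an unlinked gene. miR-451a reads per miR-486 read were 9.0, 9.57, 29.2 and 6.60 in ALAS12-KO, against 7.19, 9.0 and 10.0 in WT. Replicate 3, with 6 miR-486 reads, was far above the rest. The log2 ratio was 3.42 ± 0.91 (SD, n = 4) in ALAS12-KO and 3.07 ± 0.22 (SD, n = 3) in WT (two-sided exact permutation p = 0.83, and 0.83 adjusted). The difference of 0.35 was −0.091 without ALAS12-KO replicate 3 and 0.47 without replicate 1.

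**Figure D3:**
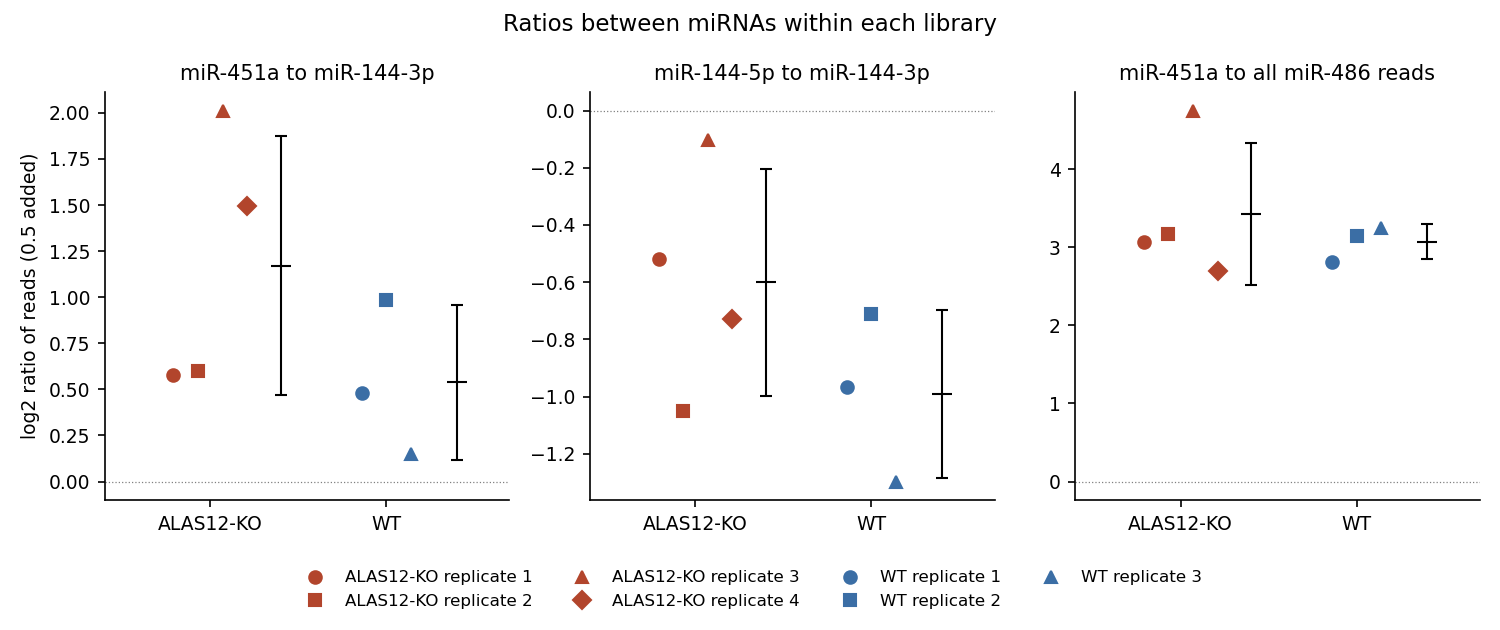
log2 ratio of reads, with 0.5 added to each count (vertical axes), for miR-451a to miR-144-3p, miR-144-5p to miR-144-3p and miR-451a to all miR-486 reads. Points are libraries and black bars are mean ± SD; the groups overlap in all 3 panels, and ALAS12-KO replicate 3 is the highest point in each.

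Across the 7 libraries, the miRNAs with the most constant ratio to miR-451a were led by 2 miRNAs of white blood cells, ahead of its cluster partner. The measure was the SD over libraries of the log2 ratio, computed on TMM-scaled CPM against each of the other 449 tested miRNAs, whose median was 0.62. It is a description of these 7 libraries. miR-223-3p, of neutrophils and other myeloid cells, had the lowest SD, 0.21, and miR-342-3p, of lymphoid and myeloid cells, the next, 0.22. miR-503-5p, miR-9-5p and miR-503-3p followed, at 0.24, 0.25 and 0.28. miR-9-5p had 5 to 25 reads per library, and counting error enters the SD of such rare miRNAs, so these ranks depend on depth. miR-144-5p ranked 44, miR-486a-5p 135 and miR-144-3p 255, with an SD of 0.65. Without ALAS12-KO replicate 1, a setting chosen after seeing the data, the lead changed and miR-130a-5p ranked 1 (SD 0.13). There miR-223-3p ranked 6 (SD 0.22) and miR-342-3p 8 (SD 0.24), against a median of 0.47, and miR-144-3p ranked 354.

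miR-223-3p, chosen for its constant ratio to miR-451a, stood at 378, 781, 1087 and 1065 CPM in ALAS12-KO replicates 1 to 4, against 1111, 1238 and 1258 CPM in WT replicates 1 to 3. There were 88.1 to 117.6 miR-223-3p reads per miR-451a read in ALAS12-KO libraries and 86.3 to 121.4 in WT libraries, a range that the choice of this miRNA had made narrow. Its log2 fold change was −0.41 ± 0.25 (edgeR adjusted p = 0.378).

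miR-144-3p kept closest to other miRNAs. The lowest SD, 0.37, was that of miR-150-5p, a miRNA of mature lymphocytes, followed by miR-5615-5p at 0.38, the arm partner miR-144-5p at 0.39, miR-485-3p at 0.40, and miR-299a-3p and miR-741-3p, both at 0.42. miR-5615-5p had 4 to 16 reads per library, so its rank is uncertain. miR-150-5p stood at 13.3, 40.5, 25.5 and 31.4 CPM in ALAS12-KO, against 45.3, 59.9 and 88.6 CPM in WT. Its groups did not overlap in CPM, and its log2 fold change was −1.04 ± 0.36 (edgeR adjusted p = 0.220). Both were made likely by its choice for a constant ratio to miR-144-3p, and 15.3% of all tested miRNAs did not overlap in this direction. The median SD over all 449 was 0.74 for miR-144-3p. Without ALAS12-KO replicate 1, miR-150-5p again had the lowest SD, 0.23.

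**Figure D4:**
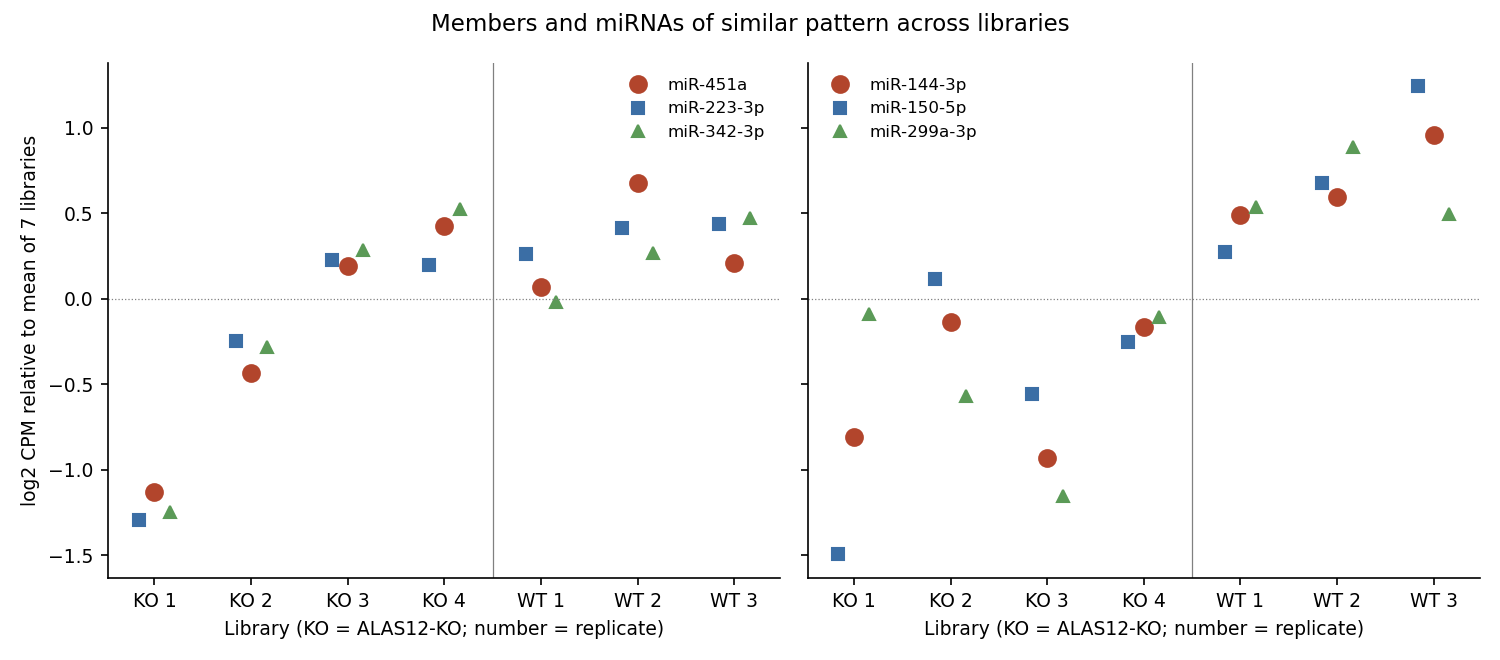
log2 CPM relative to the mean of 7 libraries (vertical axes) in each ALAS12-KO and WT library (horizontal axes), for miR-451a with miR-223-3p and miR-342-3p, and for miR-144-3p with miR-150-5p and miR-299a-3p, the 2 most abundant of the 5 most similar miRNAs in each case. miR-451a and its companions are lowest in ALAS12-KO replicate 1 and within or close to the WT levels in replicates 3 and 4, whereas miR-144-3p is lower than WT in all 4.

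Markers of the other cells of the liver were mostly lower in ALAS12-KO as well, but edgeR called 0 of them. Of all 450 tested miRNAs, 44% had a negative log2 fold change. At unadjusted p under 0.05, 8.44% were lower and 18.7% stood in either direction. Some markers are 2 arms of 1 hairpin, such as both endothelial ones, so the counts below are not of independent miRNAs. Of the 8 leukocyte markers tested, 8 had a negative log2 fold change (median −0.31, with 1 lower at unadjusted p under 0.05, miR-150-5p). Their summed level ran from 3002 to 9977 CPM in ALAS12-KO and from 8178 to 10988 CPM in WT. Both endothelial markers were negative, with miR-126a-3p, lower at unadjusted p under 0.05, at −0.61 ± 0.27 and sums of 10959 to 36485 CPM in ALAS12-KO and 35562 to 52472 CPM in WT. Of 6 mesenchymal markers 5 were negative (median −0.52, with 1 at that level, miR-145a-5p), with sums of 1575 to 5771 CPM in ALAS12-KO and 4198 to 7023 CPM in WT. Of 5 cholangiocyte markers, those of bile duct cells, 5 were negative (median −1.27, with 3 at that level, miR-200a-3p, miR-200b-3p and miR-429-3p), with sums of 54.4 to 105 CPM in ALAS12-KO and 139 to 243 CPM in WT. In this list miR-141-3p and miR-200c-3p were near 0, at −0.099 ± 0.18 and −0.068 ± 0.28, so the median did not describe every marker. All 7 hepatocyte markers were positive (median 0.34, with 1 higher at unadjusted p under 0.05, miR-122-3p; 1 of 7 was negative with library totals), with sums of 606752 to 693313 CPM in ALAS12-KO and 633861 to 661952 CPM in WT. Without ALAS12-KO replicate 1, a setting added for these lists after seeing the data, 6 of 8 leukocyte markers were negative and the medians were −0.12 for leukocyte, −0.36 for endothelial, −0.33 for mesenchymal, −1.13 for cholangiocyte and 0.20 for hepatocyte markers. No defining marker of these 5 lists was at 0. The part of these cells in the lower level of the miR-144 arms was not tested. In ALAS12-KO replicate 3, the library with the lowest miR-144-3p, the leukocyte sum of 9977 CPM and miR-451a at 10.2 CPM lay within the WT range. miR-150-5p at 25.5 CPM and the cholangiocyte sum of 105 CPM lay below it there, as miR-144-3p did. All of these lay below WT in every ALAS12-KO library, so their place in replicate 3 was settled in advance and links none of them.

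The list of miRNAs abundant in red cells but not specific to them had a lower sum in ALAS12-KO as a share of reads. Its members had mostly positive log2 fold changes with TMM factors. Of the 7 listed, 6 were tested, 0 were called, 0 had an unadjusted p under 0.05 and 1 was negative (median 0.19, or 0.15 without ALAS12-KO replicate 1), or 3 of 6 with library totals (median −0.0014). miR-16-5p, the most abundant, averaged 27299 ± 1480 CPM (SD, n = 4) in ALAS12-KO and 33833 ± 1191 CPM (SD, n = 3) in WT, with a log2 fold change of −0.12 ± 0.11 (edgeR adjusted p = 0.551). It set the sum of the list, 27503 to 31130 CPM in ALAS12-KO against 35453 to 37748 CPM in WT, which did not overlap. Of all tested miRNAs taken singly, 15.3% did not overlap in this direction in CPM. miR-92a-3p had 0.47 ± 0.27, and miR-25-3p 0.21 ± 0.15. Muscle is another source of miR-486, and its part in the miR-486 reads was not tested. The 6 muscle markers summed to 1.90 to 6.65 CPM in ALAS12-KO and 5.37 to 9.07 CPM in WT, more than miR-486 in every library. miR-208b-3p was at 0 in all libraries. Of the 6, 2 were tested, with 0 at unadjusted p under 0.05 and 1 negative (median 0.11, or −0.044 with library totals). The median described neither: miR-1a-3p, the most abundant of the 6, had −0.57 ± 0.43 and miR-499-5p 0.78 ± 0.42. Without ALAS12-KO replicate 1, only miR-1a-3p was tested, at −0.30. Of 5 miRNAs made without the Microprocessor, the Drosha complex, 2 were tested and 0 negative (median 0.50, or 0.59 without ALAS12-KO replicate 1). miR-320-3p, higher at unadjusted p under 0.05, had 0.58 ± 0.20 and miR-484 0.42 ± 0.36, miR-1224-5p was at 0 in all libraries, and the list summed to 23.4 to 55.1 CPM in ALAS12-KO and 25.8 to 31.3 CPM in WT.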

How the data were processed

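Per the labels' protocols, control RNAs were added to total RNA, a 3′ linker was ligated and the ligated small RNAs were size-selected on a gel. The deposited tables hold whole-number counts of reads for each mature miRNA, not normalised, judging from the values. The submitters' processing notes list cutadapt, limma, mm10 and hg38 with no role; what aligned and counted the reads, and against which miRNA set, is not given in the sources used here. Library sizes exclude the 5 summary entries. Reads outside any miRNA were 50.9% to 73.7% of all reads. Entries for non-unique alignment were 0, so the treatment of reads that match more than 1 miRNA is unknown. Control RNAs were not analysed here; levels are relative to all miRNAs.

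CPM are counts per 1000000 summed miRNA reads, so 1 CPM stood for 7.72 to 22.0 reads. ALAS12-KO was compared with WT with edgeR 4.0.16 in R 4.3.3 (quasi-likelihood, robust, TMM factors, low counts removed by filterByExpr at minimum count 10, Benjamini-Hochberg over 450 miRNAs, threshold 0.05), which was tested on simulated data. DESeq2 1.42.0 and limma 3.58.1 (voom) were alternatives. Ratios had 0.5 added to each count and were compared by two-sided exact permutation over 35 splits. Folds came from ViennaRNA 2.7.2, positions from GENCODE M21 (GRCm38), and scripts ran in Python 3.11.15.

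The members, lists and tests were chosen with earlier results of these data known. Named were all members and the 5 tested miRNAs of most constant ratio to miR-451a and to miR-144-3p. miR-122-5p and miRNAs sharing bases 2 to 7 with a member were named too. So was the miRNA of most constant ratio to miR-451a without ALAS12-KO replicate 1. From the lists, every marker at unadjusted p under 0.05 was named, with some others that were not always the most abundant.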

Additional observations from a re-analysis of the deposited data

How the results depend on the processing

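edgeR called 0 of the members under every alternative run within edgeR (3 other scalings, 2 changed filters, the replicate block, and each of the 7 libraries left out in turn) and limma-voom called 0, while DESeq2 called 1, miR-144-3p. The log2 fold changes kept their negative sign in all alternatives that gave a value. They ran from −1.16 to −0.86 for miR-144-3p, −0.80 to −0.47 for miR-144-5p, −0.58 to −0.077 for miR-451a and −1.0 to −0.11 for miR-486a-5p, which the filter on a mean CPM of at least 1 removed. The miR-451a to miR-144-3p difference ran from 0.24 to 0.86 over 12 alternatives and the arm difference from 0.23 to 0.54 over 10. The miR-451a to miR-486 difference reversed without ALAS12-KO replicate 3 (−0.091, where that library had 6 miR-486 reads) and otherwise ran from 0.038 to 0.59. With all libraries kept it was 0.038 as a difference of edgeR log2 fold changes. It was 0.12 against miR-486a-5p alone and 0.13 with 5 added to each count. Replicate numbers shared by the genotypes are not stated to pair the libraries. Deviations of same-numbered libraries correlated at −0.011, −0.39 and −0.030, so no shared deviation was seen, but this cannot exclude a pairing. With the replicate block the log2 fold change of miR-144-3p was −1.08 (edgeR adjusted p = 0.344), edgeR called 0 members, and the 3 ratio differences were 0.53, 0.43 and 0.59. ALAS12-KO replicate 4 has no WT library of the same number, so it adds nothing to the genotype difference in the block. The 3 ratio differences are therefore the same as those with that library left out. Leaving out 1 library cannot bring a ratio under an exact p of 0.05, and the 3 pairs of the block cannot go below 0.25, so neither bears on whether the ratio tests hold. Depth limits miR-486 most: its names had 6 to 35 reads in a library.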

Other observations

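The denominator changed how the summed members separated the genotypes. Per 1000000 of all reads counted, including those outside miRNAs and not aligned, the 7 members stood at 3.42, 3.20, 5.37 and 8.01 in ALAS12-KO replicates 1 to 4, against 6.77, 11.3 and 5.34 in WT replicates 1 to 3, so the groups overlapped. Per 1000000 miR-122-5p reads they stood at 14.9, 23.1, 28.9 and 37.0 in ALAS12-KO, against 36.6, 46.5 and 42.9 in WT, where ALAS12-KO replicate 4 lay just above WT replicate 1. The log2 ratio of the group means was negative with all 3 denominators.

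miR-451b, annotated on the strand opposite miR-451a over the same bases, had 0 reads in ALAS12-KO and 1 read in WT, against 494 and 546 reads of miR-451a.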
